A study of Mus musculus with 12 samples.

Results

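The 10 genes described here are antiviral effectors of the interferon response: Mx1, Mx2, Rsad2, Cmpk2, Isg15, Herc6, Bst2, Ifi44, Xaf1 and Rtp4. They were chosen by name and found through their Ensembl identifiers, with the version removed, as 10 of 48526 gene rows. All 10 were counted in each of 12 libraries of mouse small-intestinal epithelium. The libraries came from 4 female mice aged 3 months. The genotype called DKO, for double knockout of Kat2a and Kat2b (a pair of related lysine acetyltransferases), was induced in 2 mice by tamoxifen at 100 mg/kg, injected into the peritoneum once a day for 4 days in ethanol and corn oil. The 2 control mice received ethanol and corn oil alone, and epithelium was isolated 2 days after dosing ended. DKO and tamoxifen changed together, so their parts in any difference below cannot be told apart. The strain, the control genotype and the Cre driver are not given in the sources used here. Whole epithelium of the proximal small intestine gave, per animal, an input library of total RNA and a pulldown library for each of the antibodies J2 and K1, which bind double-stranded RNA. The series asked which RNAs these antibodies enrich and whether that changes in DKO.

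Interferons are secreted proteins that bind receptors on the cell surface and, through Janus kinases and transcription factors, switch on a large set of genes. Many of those genes encode proteins that act against viruses, and the 10 here are known as genes that interferon induces. Epithelial cells of the gut respond to interferons, and double-stranded RNA sensed inside a cell is a known trigger of their production.

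All 10 genes lie on autosomes of the mouse genome (GRCm38, GENCODE M21 annotation). Rsad2 (ENSMUSG00000020641.15, chr12:26442746-26456452, minus strand) and Cmpk2 (ENSMUSG00000020638.7, chr12:26469204-26479837, plus strand) point away from each other, with their starts 12752 bases apart. Mx1 (ENSMUSG00000000386.14, chr16:97447035-97462907, minus strand) and Mx2 (ENSMUSG00000023341.14, chr16:97535308-97560900, plus strand) also point away from each other, with 72401 bases between their starts. Isg15 (ENSMUSG00000035692.6) spans chr4:156199424-156200818 on the minus strand, and Bst2 (ENSMUSG00000046718.7) spans chr8:71534255-71537456 on the minus strand. Ifi44 (ENSMUSG00000028037.13) lies at chr3:151730922-151749960 on the minus strand, and Xaf1 (ENSMUSG00000040483.15) at chr11:72301629-72313733 on the plus strand. Rtp4 (ENSMUSG00000033355.6) is at chr16:23520291-23614222 and Herc6 (ENSMUSG00000029798.11) at chr6:57581000-57664632, both on the plus strand. Mx1 is annotated as a coding gene and Mx2 as a polymorphic pseudogene in GENCODE, and RefSeq lists both as transcribed pseudogenes of the reference strain. That status reflects the broken Mx alleles which many laboratory strains carry. Counts were made without strand. Rtp4 shares 13.9% of its exonic bases with the transcript Gm45338 and Herc6 13.7% with Gm45193, each on the same strand as its partner. Reads there fit either gene of the pair, and reads listed as ambiguous were kept apart from the genes. The other 8 genes share no exonic base with another annotated gene.

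Promoter sequences were available from RefSeq (GRCm38.p6) for 7 of the 10 genes. Those of Mx1, Mx2 and Rtp4 were not used here. The interferon-stimulated response element, a sequence through which interferon switches on genes, was searched as GAAA, any 2 bases and GAAA on both strands in the 250 bases before each start. This motif was present in 2.97% of 32817 promoters and in 3 of the 7 genes, Rsad2, Isg15 and Bst2. The stretches that hold it are shown because these 3 genes share the motif and the change described below. Each is written 5′ to 3′ along the gene, with the motif in capitals (its reverse complement in Rsad2), at chr12:26456513-26456622, chr4:156200825-156200946 and chr8:71537537-71537652, all on the minus strand.
Rsad2: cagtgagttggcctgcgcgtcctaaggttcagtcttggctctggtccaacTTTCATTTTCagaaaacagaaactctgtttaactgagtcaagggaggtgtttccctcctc
Isg15: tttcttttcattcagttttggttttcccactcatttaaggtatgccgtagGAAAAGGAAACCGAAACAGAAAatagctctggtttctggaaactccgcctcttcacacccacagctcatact
Bst2: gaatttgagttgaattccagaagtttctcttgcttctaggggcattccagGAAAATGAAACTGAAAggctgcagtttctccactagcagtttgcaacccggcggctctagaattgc

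Isg15 held 3 overlapping copies, ending 68, 62 and 56 bases before its start, Bst2 held 2 and Rsad2 held 1. A shorter form (AA, any 2 bases, GAAA), which is contained in the longer one and was chosen after the sequences were seen, was present in 21.3% of all promoters and in 5 of the 7 genes, Ifi44 and Xaf1 in addition. Cmpk2 and Herc6 held neither form in this window. A match of letters is a description of the sequence, and binding was not measured here.

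Total counts in genes were 10307281 to 11474107 in the 4 input libraries and 13308021 to 16139531 in the 4 control pulldowns. They were lower in the DKO pulldowns, at 5826361 and 2691285 for J2 and 5559033 and 2220291 for K1. In the DKO pulldowns 15.8% to 46.7% of the listed reads aligned to more than 1 place, against 5.54% to 8.05% in the other libraries, and log2 CPM (counts scaled to library size with TMM) of the 2 animals correlated across genes at r = 0.851 for J2 and 0.910 for K1, against 0.983 or more in the other groups. The DKO pulldowns therefore stand apart from the rest, and the levels of the 10 effectors in the pulldowns are given below for each animal. Kat2a was lower in DKO input by a log2 fold change of -0.88 (SE 0.23, edgeR adjusted p = 0.0205) and Kat2b by -1.51 (SE 0.17, edgeR adjusted p = 6.32e-04). Summed markers of epithelium were at 6382 to 7523 CPM in the inputs, with none of 8 at 0 in any library. They were at 5217 to 9105 CPM in the control pulldowns, and in DKO replicates 1 and 2 at 11529 and 3562 CPM with J2 and at 13519 and 6238 CPM with K1. Of these markers Krt18, a keratin, was called higher in DKO input (log2 fold change 1.32) and DKO K1 (2.22), and Cdx2 lower in DKO K1 (-1.21). The part of this gap between the DKO animals in the effectors' pulldown values was not tested. With 2 animals per group, the tests below estimate the spread from all groups of a fit, partly shared across genes. Tests of a pulldown against input without a block treat the libraries of a mouse as independent.

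The first comparison asked how the effectors differed in total RNA. All 10 were higher in DKO input, by log2 fold changes from 2.60 for Rtp4 to 5.37 for Ifi44, with both DKO animals above both control animals in every gene. Of 15088 genes tested, 35.9% were called in either direction and 18.8% were called higher, and the values did not overlap in the direction of higher DKO for 36.1%. The median log2 fold change of the 10 genes was 3.86, beside 0.00 over all genes tested. Calls here and below are those of edgeR's quasi-likelihood test with a Benjamini-Hochberg adjusted p under 0.05 over all genes tested, and fold changes are given as log2 of DKO over control. In such bulk RNA, fewer cells of a type and less RNA per cell cannot be told apart.

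**Figure D1:**
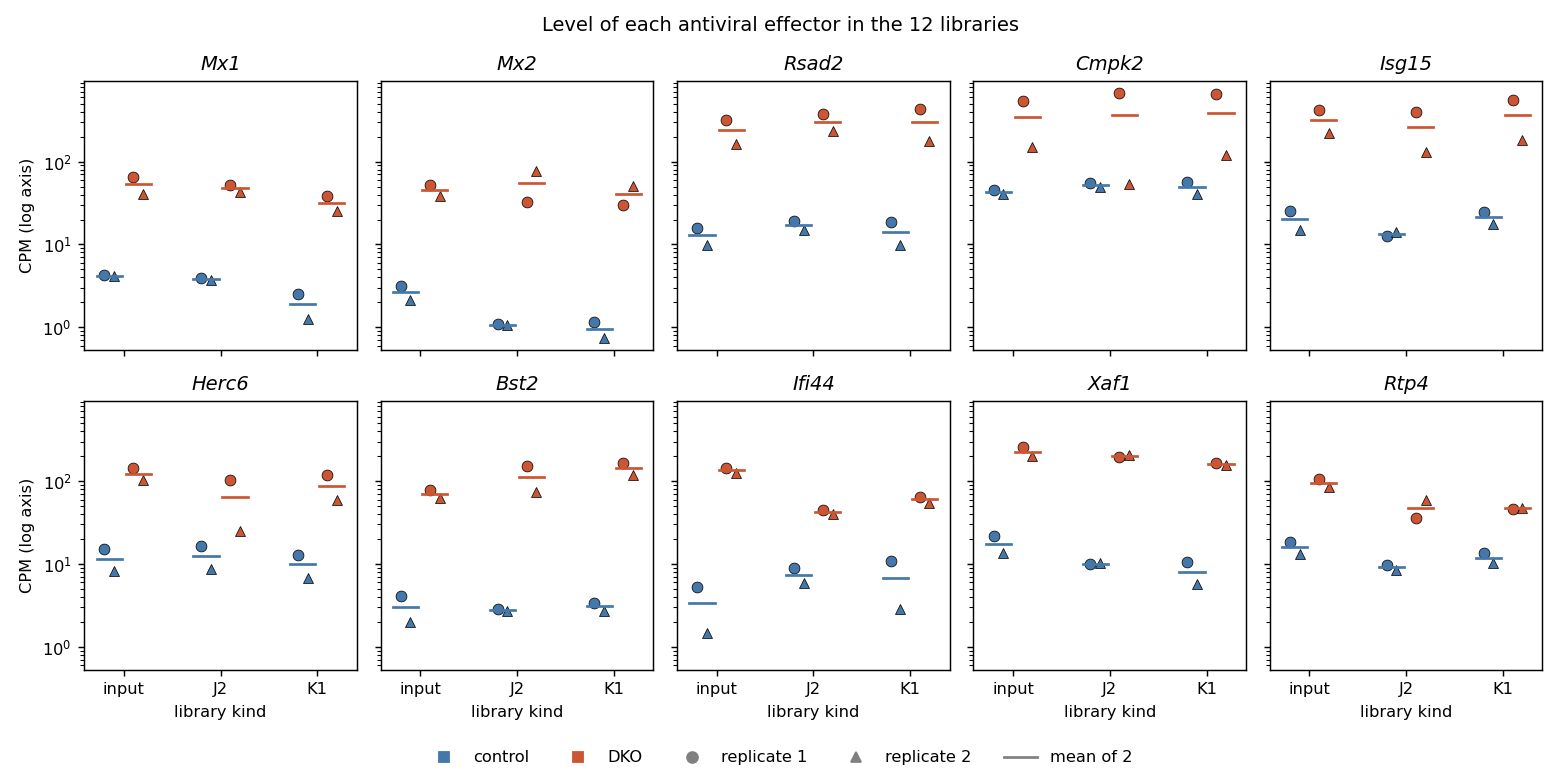
Level of each effector in the 12 libraries, in CPM on a log axis, with 1 panel per gene; circles and triangles are the 2 animals of a group, bars their mean, blue control and red DKO. The red points lie above the blue ones in every panel for input and K1, while for J2 Cmpk2 has 1 DKO animal at 53.2 CPM, between the controls at 49.4 and 55.9 CPM.

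The Mx proteins are large GTPases of the dynamin family that trap viral components. Mx1 had 52 and 56 counts in the control inputs and 763 and 521 in the DKO inputs, which is 4.25 and 4.13 against 66.0 and 40.7 CPM. The controls were almost level with each other, and the lower DKO animal was 9.57-fold above the higher control. Mx1 thus changed by 3.67 on the log2 scale (SE 0.27, edgeR adjusted p = 1.66e-04). Mx2 stood at 3.19 and 2.14 CPM in control and at 52.7 and 38.2 CPM in DKO, a log2 fold change of 4.10 (SE 0.26, edgeR adjusted p = 9.02e-05). Its control counts were 39 and 29, the lowest of the 10 genes in replicate 1, while Ifi44 and Bst2 were lower in replicate 2.

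Rsad2 encodes viperin, a radical-SAM enzyme that turns CTP into a nucleotide which ends viral RNA chains, and the neighbouring Cmpk2 encodes a nucleotide kinase. Rsad2 was at 16.0 and 9.88 CPM in control and 314 and 162 CPM in DKO, a log2 fold change of 4.22 (SE 0.37, edgeR adjusted p = 3.02e-04). Cmpk2 was at 45.3 and 40.2 CPM in control and 542 and 150 CPM in DKO. Both DKO animals were above the controls but differed from each other by 3.61-fold, more than in any of the other 9 genes in this group. The log2 fold change of Cmpk2 was 3.03 with the largest SE of the 10 genes (0.53, edgeR adjusted p = 0.00443). When all 12 libraries shared 1 estimate of the spread, Cmpk2 was no longer called (edgeR adjusted p = 0.106) and the other 9 were.

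Isg15 encodes a ubiquitin-like protein that is attached to other proteins, and Herc6 the ligase that does so in the mouse. Isg15 was at 25.3 and 15.0 CPM in control and 423 and 219 CPM in DKO, a log2 fold change of 4.01 (SE 0.38, edgeR adjusted p = 3.63e-04). Herc6 was at 15.0 and 8.19 CPM in control and 142 and 104 CPM in DKO. The change of Herc6 was 3.42 on the log2 scale (SE 0.29, edgeR adjusted p = 2.68e-04). In both genes replicate 1 was the higher animal of each genotype.

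Bst2 encodes tetherin, a membrane protein that holds budding virus particles on the cell surface. It rose from 50 and 27 counts (4.09 and 1.99 CPM) to 898 and 814 counts (77.7 and 63.5 CPM), with a log2 fold change of 4.56 (SE 0.28, edgeR adjusted p = 8.26e-05). Ifi44, an interferon-induced protein of the cytoplasm, had the largest change, from 64 and 20 counts (5.23 and 1.47 CPM) to 1681 and 1628 counts (145 and 127 CPM). The DKO animals were close to each other, while the controls differed by 3.55-fold on few counts. This gave a change of 5.37 on the log2 scale (SE 0.41, edgeR adjusted p = 1.84e-04).

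Xaf1 encodes a partner of the apoptosis inhibitor XIAP. It was at 21.7 and 13.6 CPM in control and 257 and 199 CPM in DKO, a log2 fold change of 3.70 (SE 0.25, edgeR adjusted p = 1.22e-04). Rtp4, a member of the receptor-transporter proteins that is known to restrain viruses, had the smallest change. It stood at 18.6 and 13.3 CPM in control and 107 and 85.5 CPM in DKO, with a log2 fold change of 2.60 (SE 0.20, edgeR adjusted p = 1.86e-04).

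The animals also ordered alike within a genotype. In the control inputs replicate 1 was above replicate 2 in 10 of 10 genes, and the same held in the DKO inputs. The median fold between the animals of a group was 1.61 in control and 1.38 in DKO, which is small beside the difference between the genotypes. The 10 genes share a library in this count, so it is a description of 2 pairs of libraries.

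Within the J2 pulldowns 8 of 10 effectors were higher in DKO, against 12.2% of 13181 genes called in either direction and 6.02% called higher. The median log2 fold change was 4.19, beside 0.03 over all genes. Mx2 had the largest change, from 1.10 and 1.05 CPM to 32.2 and 76.8 CPM (log2 fold change 5.98, SE 0.66, edgeR adjusted p = 0.0287). It rested on 15 and 12 control counts. Bst2 followed, from 2.86 and 2.71 CPM to 152 and 73.2 CPM (5.61, SE 0.49, edgeR adjusted p = 0.0287). Xaf1 was at 9.97 and 10.2 CPM in control and 199 and 205 CPM in DKO, so that the animals of each genotype were nearly level (4.63, SE 0.39).

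Isg15 in J2 stood at 12.8 and 14.2 CPM in control and 400 and 129 CPM in DKO (log2 fold change 4.56, SE 0.65). Rsad2 was at 19.1 and 14.9 CPM in control and 373 and 237 CPM in DKO (4.45, SE 0.47). Mx1 was at 3.96 and 3.68 CPM in control and 52.6 and 42.8 CPM in DKO (3.94, SE 0.35). All 3 had DKO values far above both controls, and the animals of Isg15 were the most apart. Ifi44 had a smaller log2 fold change than in input, from 9.02 and 5.86 to 45.5 and 40.0 CPM (2.82, SE 0.39), and Rtp4 went from 9.83 and 8.40 to 36.3 and 58.5 CPM (2.70, SE 0.43). The edgeR adjusted p of these 5 genes lay between 0.0287 and 0.0306.

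Cmpk2 and Herc6 were not called in J2, and both had DKO animals far apart. Cmpk2 was at 671 and 53.2 CPM in DKO and 55.9 and 49.4 CPM in control, so 1 DKO animal lay 12.6-fold above the other and the lower one fell between the controls. Its log2 fold change was 3.02 with an interval from 0.23 to 5.81 (SE 1.11, edgeR adjusted p = 0.122). Herc6 was at 103 and 25.3 CPM in DKO and 16.5 and 8.67 CPM in control, without overlap (2.61, SE 0.72, edgeR adjusted p = 0.0688). DKO values did not overlap with control and were higher in 9 of 10 genes, against 23.4% of all genes tested. A fit without an animal leaves 1 library in its genotype, which is then assumed to vary like the others, with the spread taken from the other genotype alone. Without either control animal, 2 of the 8 calls were left, Mx2 and Bst2, and all genes called fell from 1606 to 177 or 225. Without DKO replicate 1, 9 effectors were called (59% of all genes), and without DKO replicate 2, 10 (54% of all genes).

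**Figure D2:**
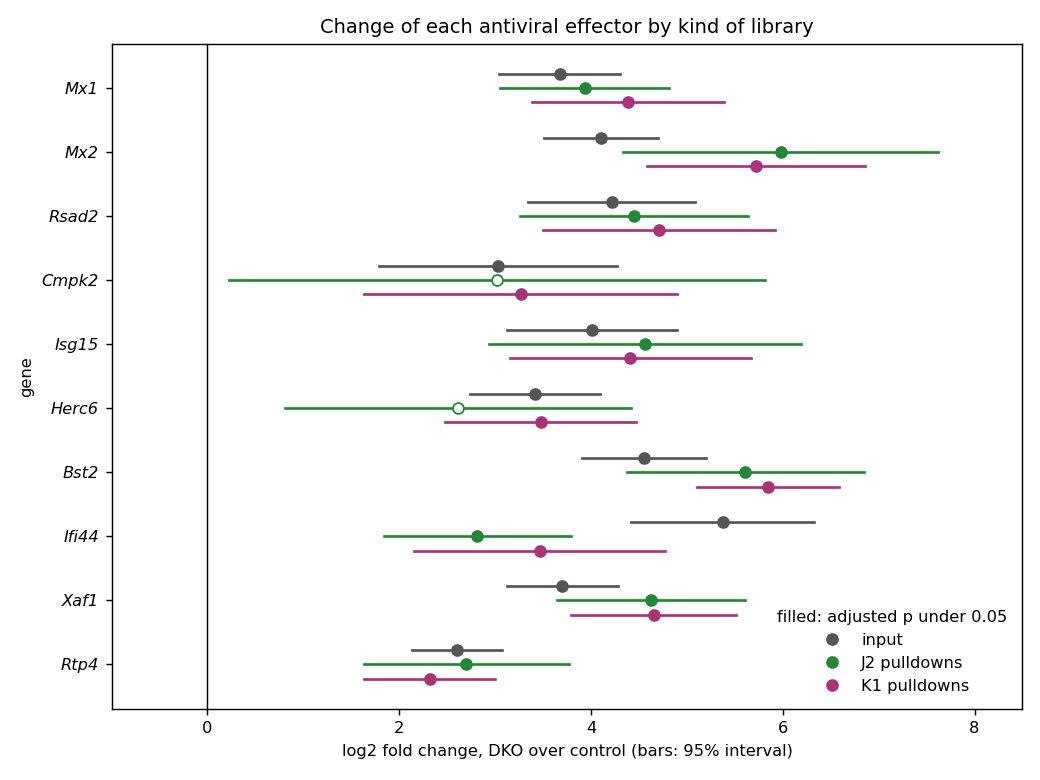
Log2 fold change of DKO over control for each effector in input (grey), J2 (green) and K1 (purple) libraries, with 95% intervals; filled points have an adjusted p under 0.05. Of the 30 points, 28 are filled and all lie above 0, with Ifi44 highest in input at 5.37 and Mx2 highest in J2 at 5.98.

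Within the K1 pulldowns all 10 effectors were higher in DKO, against 27.1% of 12888 genes called in either direction and 13.2% called higher. Both DKO animals were above both controls in all 10, against 21.9% of all genes. The median log2 fold change was 4.40, beside -0.02 over all genes. Bst2 had the largest change, from 3.42 and 2.74 CPM to 165 and 120 CPM (log2 fold change 5.85, SE 0.32, edgeR adjusted p = 0.00127). Mx2 went from 1.16 and 0.740 to 30.1 and 51.0 CPM (5.72, SE 0.49, edgeR adjusted p = 0.00168). For Mx2 replicate 2 was the higher DKO animal in both kinds of pulldown, while replicate 1 was higher in input.

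The enzymes and modifiers were high in K1 as well. Rsad2 went from 18.7 and 9.77 to 428 and 178 CPM (log2 fold change 4.71, SE 0.52), and Cmpk2 from 57.4 and 40.6 to 662 and 119 CPM (3.27, SE 0.70, edgeR adjusted p = 0.0156). Isg15 went from 24.9 and 17.7 to 560 and 183 CPM (4.41, SE 0.54), and Herc6 from 13.0 and 6.81 to 118 and 59.0 CPM (3.47, SE 0.43). In these 4 genes replicate 1 was the higher DKO animal, by 2.01-fold for Herc6 to 5.55-fold for Cmpk2.

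In the remaining 4 genes the DKO animals lay within 1.48-fold of each other in K1. Mx1 went from 2.51 and 1.26 to 38.1 and 25.7 CPM (log2 fold change 4.38, SE 0.43), and Xaf1 from 10.4 and 5.70 to 166 and 158 CPM (4.65, SE 0.37). Ifi44 went from 10.8 and 2.89 to 65.3 and 55.2 CPM (3.46, SE 0.56, edgeR adjusted p = 0.00651). Rtp4 changed least, from 13.5 and 10.2 to 46.4 and 47.6 CPM (2.32, SE 0.29, edgeR adjusted p = 0.00336). Leaving aside the fit of all 12 libraries, all 10 were called in K1 under each alternative of normalization, filter, tool and depth. They were also called without each animal, in fits that called 9.03% to 41.5% of all genes and took the spread from the other genotype alone.

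Since libraries were scaled to equal size and no spike-in is described, how much RNA an antibody captured in all cannot be read from these values, and a control antibody was not analysed here. On that scale, the level of an effector in a pulldown was compared with its level in input. In control mice J2 called none of the 10 effectors against input with edgeR (29.8% of 15923 genes were called), and 3 had an unadjusted p under 0.05. In DKO mice J2 also called none (25.7% of genes called), with 2 at an unadjusted p under 0.05. DESeq2 called 1 effector lower in each genotype. Without either DKO animal, 4 effectors were called in each genotype, all 4 lower in control, in fits that called 59.9% and 60.5% of all genes in control and 46% and 42.1% in DKO.

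K1 called 3 effectors lower than input in control mice and none higher, against 39.8% of 15908 genes called and 20.1% called lower. They were Mx2 (log2 pulldown over input -1.53, SE 0.43, edgeR adjusted p = 0.0173), Mx1 (-1.20, SE 0.38, edgeR adjusted p = 0.0300) and Xaf1 (-1.20, SE 0.33, edgeR adjusted p = 0.0147). By animal, pulldown minus input was -1.32 and -1.31 for Mx2, -0.71 and -1.57 for Mx1 and -1.04 and -1.22 for Xaf1. With each animal left out in turn, log2 pulldown over input ranged from -1.56 to -1.51 for Mx2. It ranged from -1.75 to -0.83 for Mx1 and from -1.30 to -1.14 for Xaf1. These are ranges of the estimate alone, and none of the 3 calls was kept when either control animal was left out. The control K1 libraries held 18 and 10 counts of Mx2, 39 and 17 of Mx1 and 162 and 77 of Xaf1. In DKO mice K1 called 2 effectors, against 35.6% of genes, 14.6% higher and 21% lower. Bst2 was enriched (1.11, SE 0.28, edgeR adjusted p = 0.0119), with pulldown minus input at 1.09 and 0.92 in the 2 animals, and Rtp4 was depleted (-0.94, SE 0.23, edgeR adjusted p = 0.0117), at -1.21 and -0.84. Neither was called without DKO replicate 1.

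**Figure D3:**
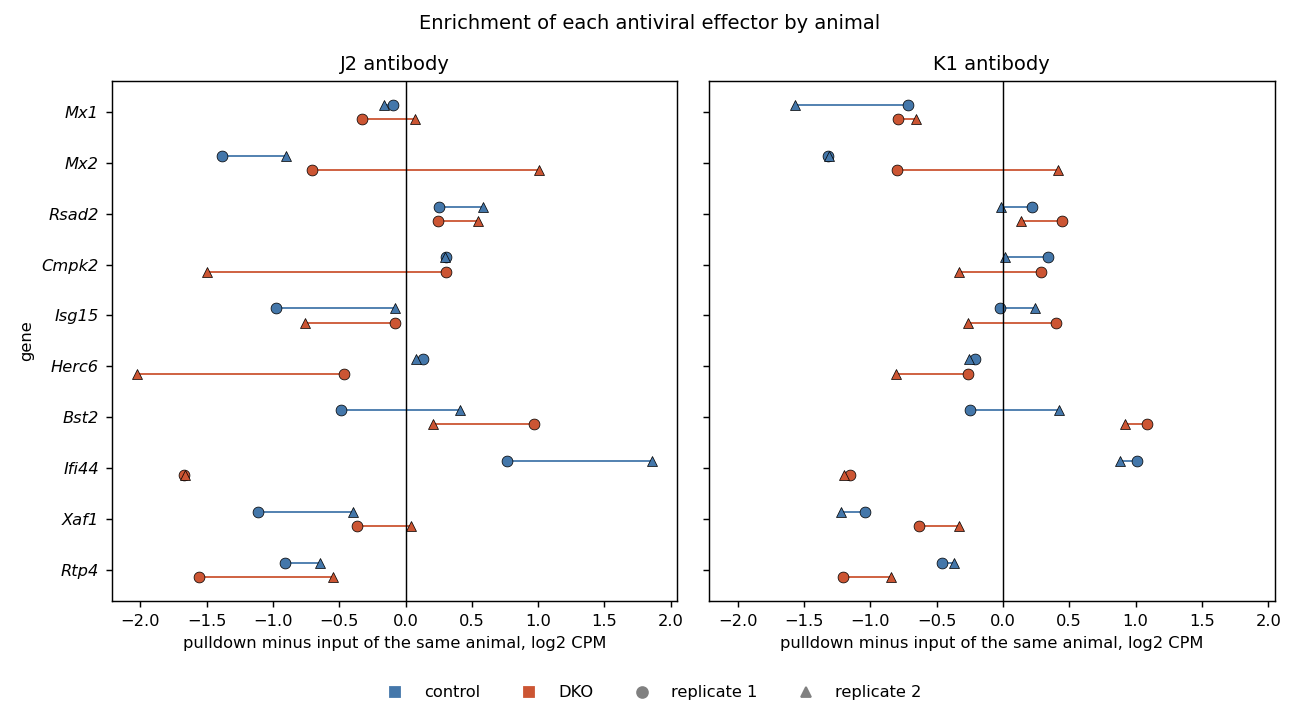
Log2 CPM of the pulldown minus that of the input of the same animal, for J2 (left) and K1 (right), with 1 row per effector; blue is control, red DKO, circles replicate 1 and triangles replicate 2. Ifi44 has both controls to the right of 0 and both DKO animals to the left with each antibody, at 0.76 and 1.86 against -1.67 and -1.66 for J2.

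Ifi44 had the largest difference between the genotypes in its pulldown level relative to input. Its J2 pulldown minus input was 0.76 and 1.86 in the control animals and -1.67 and -1.66 in the DKO animals. For K1 the controls stood at 1.01 and 0.88, DKO at -1.15 and -1.20. Thus Ifi44 was above its input in all 4 control pairs and below it in all 4 DKO pairs, with each input used for both antibodies. DKO values below both control values were found for 41.7% of all genes with J2 and 44.8% with K1. The difference of enrichment, DKO minus control, was -2.54 for J2 (SE 0.68, edgeR adjusted p = 0.0792) and -2.05 for K1 (SE 0.77, edgeR adjusted p = 0.142), and neither was called. With the animal as a block, which pairs each pulldown with its own input, Ifi44 was called in each of the 4 contrasts with input: 1.25 for J2 in control (edgeR adjusted p = 0.0375), -1.43 for J2 in DKO (0.0243), 0.94 for K1 in control (0.00627) and -1.08 for K1 in DKO (5.41e-04). The K1 difference was then called too, at -2.02 (edgeR adjusted p = 0.00150), and the J2 difference was not, at -2.68 (edgeR adjusted p = 0.0712). The control input of Ifi44 holds 64 and 20 counts, the spread of which enters each of these values.

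The difference of enrichment called 0 of 10 effectors for J2 with edgeR (2.71% of genes called, 2 effectors at an unadjusted p under 0.05) and 0 of 10 for K1 (5.47% of genes called, 3 effectors at an unadjusted p under 0.05). DESeq2 called 1 effector lower for J2 and 0 for K1. Without DKO replicate 1 the calls were 5 for J2 and 1 for K1, where 41.3% and 22.7% of all genes were called. Without DKO replicate 2 they were 2 and 0, where 27.6% and 10.1% of all genes were called. Mx2 had the largest positive difference, 1.85 for J2 (SE 0.65, edgeR adjusted p = 0.131) and 1.44 for K1 (SE 0.53, edgeR adjusted p = 0.134). Its J2 values were -1.38 and -0.90 for the controls but -0.71 and 1.01 for DKO, so the DKO animals were themselves far apart. Bst2 had a K1 difference of 1.15 (SE 0.45, edgeR adjusted p = 0.153), from -0.25 and 0.42 in control to 1.09 and 0.92 in DKO, and was called with the animal as a block (1.12, edgeR adjusted p = 0.0460). Against input, the K1 pulldown of Mx1 in DKO was called lower with the block (-0.64, edgeR adjusted p = 0.0308). It was not called without the block (-0.63, edgeR adjusted p = 0.140). The K1 difference of Mx1, DKO minus control, was 0.57 (SE 0.49, edgeR adjusted p = 0.524).

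Xaf1 and Rtp4 were mostly below their input. With J2, pulldown minus input of Xaf1 was -1.11 and -0.40 in the controls, while DKO animals stood at -0.37 and 0.04. Against the K1 values of its controls (-1.04 and -1.22), DKO stood at -0.63 and -0.33. DKO values of Xaf1 were thus above both control values with each antibody, as for 19.6% of all genes with J2 and 16.1% with K1, and the fitted differences of 0.93 (SE 0.44, edgeR adjusted p = 0.225) and 0.80 (SE 0.44, edgeR adjusted p = 0.310) were not called. Rtp4 was below its input in all 8 pairs of pulldown and input, which come from 4 animals with each input used for both antibodies. With K1 it was at -0.46 and -0.37 in control and -1.21 and -0.84 in DKO. DKO was thus below both controls, as for 44.8% of all genes with K1. The fitted difference of -0.44 (SE 0.33, edgeR adjusted p = 0.460) was not called.

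Rsad2 was between -0.02 and 0.58 in all 8 pairs of pulldown and input. Cmpk2 in DKO J2 was 0.31 in 1 animal and -1.49 in the other. Herc6 in DKO J2 was -0.46 and -2.02, below its control values of 0.13 and 0.08, as for 41.7% of all genes with J2. Its fitted difference was -0.75 (SE 0.88, edgeR adjusted p = 0.617). With K1 Herc6 was at -0.21 and -0.26 in control and -0.27 and -0.81 in DKO. Isg15 varied from -0.97 to 0.40 over its 8 pairs. For Cmpk2 the mean over animals of the J2 difference was -0.89 and the fitted value 0.06, so the sign rests on how the 2 unequal animals are weighed. For the J2 difference of all genes, 28.5% of the calls were higher with TMM scaling and 10.5% without it.

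Levels of different genes were compared as CPM per kilobase of exon. Isg15, with the shortest exonic length of the 10 genes (756 bases), had the highest mean level in all 6 groups, at 26.6 CPM per kilobase in control input and 425 in DKO input. Cmpk2 was next in control input at 10.3, followed by Rtp4 at 7.49, and the ranges of these 3 did not overlap. Xaf1, Bst2 and Rsad2 then lay at 3.76, 3.37 and 2.99, each within the range of its neighbour, and Herc6 at 1.25 and Mx1 at 1.11 also overlapped. Mx2 at 0.737 and Ifi44 at 0.547 were lowest and overlapped with each other.

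In DKO input the order below Isg15 changed. Cmpk2 (83.1 CPM per kilobase), Bst2 (78.2), Rsad2 (55.0), Xaf1 (48.6) and Rtp4 (45.2) followed, and each overlapped with its neighbour. Ifi44, lowest in control, stood above Mx1 in DKO at 22.2 against 14.1 CPM per kilobase, without overlap. Mx1, Herc6 and Mx2 were lowest at 14.1, 13.2 and 12.6, and their neighbouring ranges overlapped. In the DKO pulldowns Bst2 was second to Isg15, at 125 CPM per kilobase in J2 and 158 in K1, while Cmpk2 had been second in both control pulldowns. The ranges of Bst2 and Cmpk2 overlapped in the DKO pulldowns with both antibodies.

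Over the 12 libraries, the log2 CPM of the 45 pairs of effectors correlated with a median r of 0.918. The lowest was Mx2 with Cmpk2 at 0.675 and the highest Mx2 with Xaf1 at 0.990. The genes outside the 10 whose log2 CPM followed their mean pattern most closely, among 9368 genes, were Mlkl (r = 0.994), Oas1a (0.993), Cxcl10 (0.993), Oasl2 (0.992) and H2-Q6 (0.989). Mlkl encodes the executor of necroptosis, Oas1a an oligoadenylate synthetase, Cxcl10 a chemokine, Oasl2 a relative of the synthetases and H2-Q6 a class I histocompatibility protein. These correlations describe 12 libraries that share genotype, animal and depth.

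The enzymes around Isg15 were also measured. All 5 were higher in DKO input, where 35.9% of genes were called: Usp18, which removes ISG15 and dampens receptor signalling, by 4.04 (SE 0.46, edgeR adjusted p = 7.25e-04), the activating enzyme Uba7 by 1.41 (SE 0.19), the ligase Trim25 by 1.36 (SE 0.19), the conjugating enzyme Ube2l6 by 0.84 (SE 0.12) and the ligase Arih1 by 0.40 (SE 0.12, edgeR adjusted p = 0.0354). Usp18 stood at 16.2 and 7.89 CPM in control input and 269 and 122 CPM in DKO input, with replicate 1 the higher animal in both, as for Isg15. In each kind of pulldown 2 of 5 were called, both higher, against 6.02% of all genes called higher in J2 and 13.2% in K1. Of the 5 log2 fold changes, 2 were below 0 in J2, the lowest at -0.40, and 0 in K1. In J2 Arih1 went from 138 and 114 CPM in control to 86.2 and 68.9 CPM in DKO. Ube2l6 went from 95.8 and 101 to 105 and 32.6 CPM in J2, and Trim25 from 436 and 401 to 670 and 285 CPM. Usp18 rose by 4.86 in J2 (SE 0.74) and 5.19 in K1 (SE 0.69), and Uba7 by 3.03 (SE 0.57) and 2.69 (SE 0.32), all on the log2 scale. The DKO animals stood apart in both genes: Usp18 was at 314 and 81.3 CPM in DKO J2 and 388 and 95.3 CPM in DKO K1, and Uba7 at 471 and 183 CPM in DKO J2 and 466 and 291 CPM in DKO K1. The highest control pulldown was at 10.8 CPM for Usp18 and 74.3 CPM for Uba7.

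**Figure D4:**
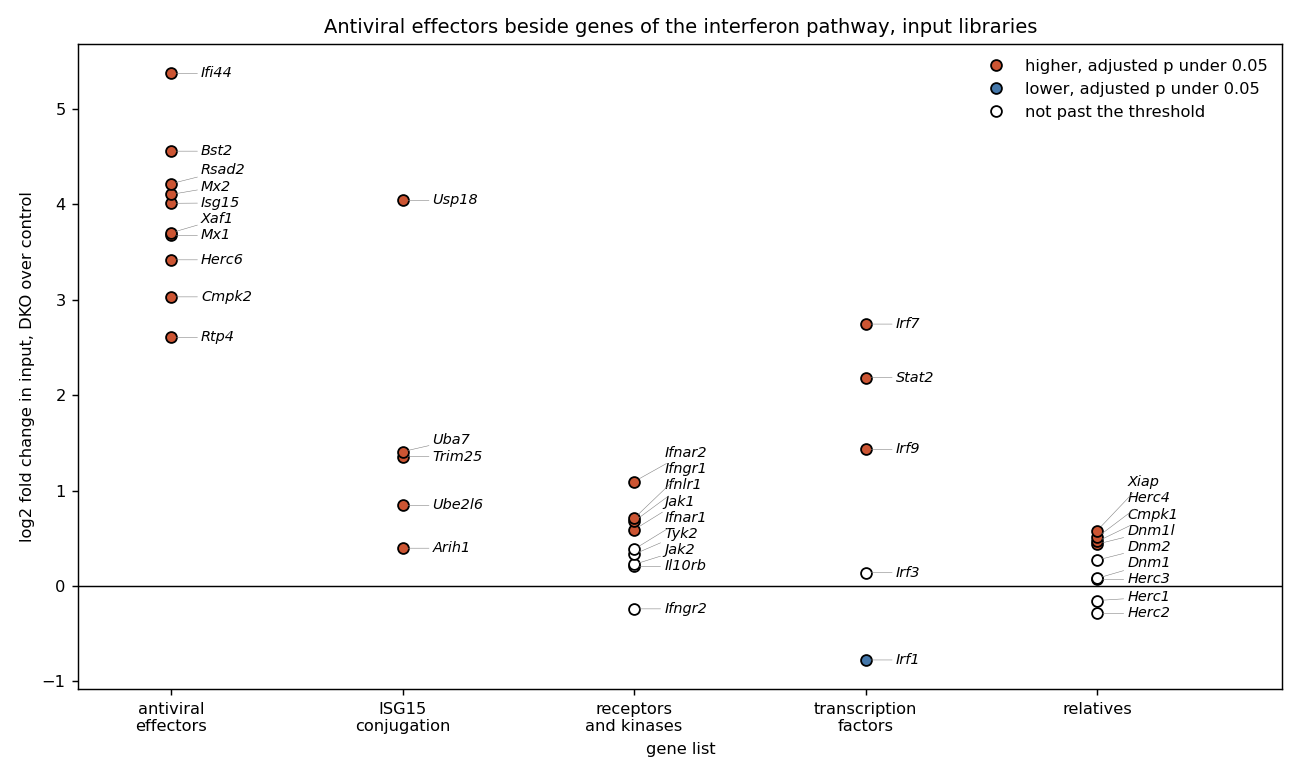
Log2 fold change in input, DKO over control, of the 10 effectors beside 4 lists of genes of the pathway or related to the effectors; red points were called higher, blue lower, white were not called. The effectors lie between 2.60 and 5.37, and of the other lists Usp18 at 4.04 and Irf7 at 2.74 reach that range.

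The genes that carry the interferon signal had smaller fold changes in input than most effectors. Of 9 receptor chains and kinases, 4 were higher and none lower in DKO input, where 35.9% of all genes were called and 18.8% were higher, the largest being Ifnar2 at 1.09 (SE 0.21), Ifngr1 at 0.71 (SE 0.14) and Ifnlr1 at 0.68 (SE 0.13). Their median was 0.38. In J2, 1 of the 9 was called, against 12.2% of all genes (Ifnar2, higher by 2.30, SE 0.45, from 5.06 and 4.99 CPM to 15.6 and 24.2 CPM). In K1, 2 were higher and 2 lower, against 27.1% of all genes called, with Ifnar2 at 2.27 (SE 0.38), Il10rb at -1.15 (SE 0.29) and Ifnlr1 at 1.13 (SE 0.29).

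Of 5 transcription factors, 3 were higher and 1 lower in DKO input, where 18.8% of all genes were called higher. Irf7, which amplifies interferon production, rose by 2.74 (SE 0.17, edgeR adjusted p = 8.26e-05), Stat2 by 2.18 (SE 0.20) and Irf9 by 1.43 (SE 0.12). Irf1 was lower at -0.78 (SE 0.15) and is named after its value was seen. In J2, 2 were called, Stat2 (higher by 2.84, with DKO animals at 240 and 200 CPM) and Irf3 (higher by 1.88, at 61.1 and 63.9 CPM), against 6.02% of all genes called higher. In K1, 4 were called, all higher, against 13.2% of all genes, led by Irf7 (3.33), Stat2 (2.77) and Irf9 (1.51).

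Relatives of the effectors by sequence or partner, such as dynamins, Cmpk1, Xiap and other Herc genes, numbered 13, of which 9 had enough counts to be tested. In DKO input 4 were higher and none lower, where 35.9% of all genes were called and 18.8% were higher, with Xiap at 0.58 (SE 0.12), Herc4 at 0.51 (SE 0.14) and Cmpk1 at 0.47 (SE 0.11) the largest. In J2 none was called by edgeR, 2 had an unadjusted p under 0.05, and in K1 Xiap was lower at -0.96 (SE 0.28), from 218 and 155 CPM to 83.6 and 69.1 CPM.

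Counts of the interferon genes themselves were near 0. Summed over 20 ligand genes, control input held 29 and 35 counts and DKO input 17 and 22. The pulldowns went the other way. In J2 the sum was 0.807 and 0.350 CPM in control (11 and 4 counts) against 3.68 and 9.29 in DKO (16 and 33 counts). In K1 it was 0.451 and 0.0740 CPM in control (7 and 1 counts) against 2.20 and 3.79 in DKO (10 and 9 counts). Only Ifnk passed the filter in input, with 25 and 33 counts in control and 9 and 16 in DKO, lower by a log2 fold change of -1.12. In J2, only Ifnab passed, and it was called higher at a log2 fold change of 7.79. It had 0 and 0 counts in control and 10 and 12 in DKO, where 3 counts equal 0.689 and 0.844 CPM. Ifnb1, the first type I interferon made by many cells, was listed at 0 in all 12 libraries.

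Markers of other cells were measured beside the effectors. In input, 15 leukocyte markers summed to 70.9 and 82.6 CPM in control and 60.2 and 52.1 CPM in DKO. Of 11 tested, 5 were lower and 2 higher in DKO, where 35.9% of all genes were called and 18.8% were higher. The largest changes were those of Csf1r at 2.74, Cd3g at -1.12 and Cd68 at 1.01. The 10 stromal and endothelial markers summed to 4.33 and 7.67 CPM in control input and 12.8 and 6.95 in DKO input, with Pdgfrb higher by 1.99. In the pulldowns their sum was 6.75 and 24.5 CPM in control J2 against 168 and 34.3 in DKO J2, and 5.86 and 42.1 CPM in control K1 against 198 and 79.7 in DKO K1. Cdh5 was at 0 in all 4 J2 libraries. The summed leukocyte markers were 52.1 and 56.7 CPM in control J2 against 56.8 and 90.1 in DKO J2, and 52.1 and 43.0 against 61.2 and 62.8 CPM in K1. Single leukocyte markers moved more than these sums. In DKO K1, 4 of 10 tested were higher, against 13.2% of all genes, and none lower: Csf1r (3.62), Adgre1 (3.23), Cd68 (2.62) and Itgax (1.74), markers of macrophages and dendritic cells. Csf1r went from 1.03 and 1.04 to 15.6 and 4.64 CPM on 71 and 11 DKO counts. Counts in K1 were 3 and 4 in control against 11 and 3 in DKO for Adgre1, and 12 and 9 against 8 and 14 for Cd68. Itgax, higher in DKO K1, was lower in DKO input (-0.85, SE 0.26, edgeR adjusted p = 0.0371). The T-cell marker Cd3g stood at -1.83 in K1 (SE 0.68, edgeR adjusted p = 0.0819) and Csf1r at 3.16 in J2 (SE 0.94, edgeR adjusted p = 0.0791), neither called. The part of these cells in the effectors' change was not tested.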

How the data were processed

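Gene-level read counts were measured by sequencing in 12 libraries, 3 from each of 4 mice. Per the labels, the libraries were made with random primers, ribosomal RNA depletion that keeps strand and molecular identifiers, were read as pairs of 150 bases, and the authors deposited whole-number counts per gene made without strand. The submitters' processing notes name STAR 2.7.10b, SAMtools 1.17, UMI-tools 1.1.4, HTSeq 2.0.2, DESeq2 1.40.1, edgeR 3.42.2, deepTools 3.5.2, FastQC and the builds mm10 and GRCm38.p4. Whether the identifiers were used in the counts, and the annotation release, are not given in the sources used here. Copies made by amplification may therefore be counted as reads. Rows that name no gene (reads outside genes at 6.76% to 27.0% of the listed reads, ambiguous reads at 3.65% to 6.11% and reads aligned to several places at 5.54% to 46.7%) entered neither library sizes nor tests.

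Identifiers matched GENCODE M21 for 48144 of 48526 rows without the version and 40692 with it. The test was the quasi-likelihood test of edgeR 4.0.16 (R 4.3.3) after TMM scaling, on genes that passed filterByExpr (minimum count 10), with Benjamini-Hochberg adjustment over all genes tested and a threshold of 0.05. Genotype comparisons used the 4 libraries of a kind. Comparisons of a pulldown with input, and their difference between genotypes, used the 8 libraries of an antibody and its inputs, without a block. CPM values use TMM over all 12 libraries, and log2 CPM a prior count of 2. Same-animal values are differences of these log2 CPM. The tests were tried on simulated data. Alternatives were edgeR without TMM, DESeq2 1.42.0, no filter, all 12 libraries in 1 fit, counts thinned to the smallest library, a replicate block and leaving out each animal. Pulldown and input share the animal named in the labels, and their deviations from the group mean correlated at r = 0.357 to 0.569, so the block pairs them. Copies were searched with blastn 2.17.0+ at 97% identity over 100 bases: 26.7% of the longest transcript of Herc6, 15.9% of Rtp4 and 3.93% of Xaf1 matched another gene, and none of the other 7.

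The members and all gene lists were chosen with earlier results of these data known. All 10 members are named in every comparison. Of other lists, the text names up to 3 genes past the threshold with the largest change and up to 2 that did not pass with the highest count, and all genes of ISG15 conjugation. Of the leukocyte markers, all 4 called in K1 are named, and Itgax also in input. The 5 likest genes are those with the highest r among genes with a mean of at least 50 counts. Some genes of these lists are not reported here.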

Additional observations from a re-analysis of the deposited data

Results flagged for a closer look

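In 3 cases both control animals moved one way from input to pulldown and both DKO animals moved the other way. For Ifi44 the mean log2 pulldown over input was 1.31 in control and -1.67 in DKO with J2, a difference of -2.98. With K1 the means of Ifi44 were 0.95 and -1.18, a difference of -2.12. For Herc6 with J2 they were 0.11 and -1.24, a difference of -1.35. Control and DKO values that do not overlap, with DKO lower, were found for 41.7% of all genes with J2 and 44.8% with K1. This wider rule asks for no change of sign, and the share of all genes with opposite signs was not counted. In edgeR none of the 3 differences passed the threshold without a block (adjusted p 0.0792, 0.142 and 0.617), and with the animal as a block Ifi44 passed it for K1 (adjusted p = 0.00150).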

How the results depend on the processing

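With 2 animals per group and 2220291 to 5826361 counts in the DKO pulldowns, small differences of enrichment could not be resolved, and intervals cover counting error and 2 mice only. Of 300 values of the effectors in the genotype comparisons over the alternatives, 276 kept direction and side of the threshold, 14 fell below it, 10 passed it and 0 turned sign. Of 600 values of pulldown against input and of their difference, 480 kept both, 12 fell below, 52 passed and 56 turned sign. The cause of these changes was not tested.

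Counts of genes called moved by over 1.5 times as follows. With all 12 libraries in 1 fit, all genes called in input were 1675 instead of 5421, in J2 5984 instead of 1606, and for the difference of enrichment 898 instead of 432 (J2) and 59 instead of 870 (K1). J2 against input then called 1 effector in control instead of 0. DESeq2 called 2751 genes in J2 and 1814 for the J2 difference, and 1 effector each for J2 against input in control, in DKO and for the J2 difference. Without TMM, J2 against input called 1 effector in control and 1 in DKO, and the J2 difference called 669 genes. Without the filter on low counts, 4273 genes were called in J2, 2453 for the J2 difference and 1763 for the K1 difference. The effectors called were then 2 (control) and 3 (DKO) for J2 against input, and 2 for each difference. With thinned counts, the genes called were 2691 instead of 4747 (J2 against input, control), 2308 instead of 4087 (J2, DKO), 2971 instead of 6324 (K1, control), 3492 instead of 5659 (K1, DKO), 211 (J2 difference) and 224 (K1 difference). The effectors called were then 1 for each of the 4 contrasts of pulldown with input. Split by direction, calls higher for the J2 difference were 28.5% with TMM and 10.5% without it.

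With the replicate block, which for pulldown against input pairs libraries of the same animal, J2 against input called 1 effector in control and 1 in DKO, K1 in DKO called 4 instead of 2, and the K1 difference called 2 instead of 0. The blocked J2 difference called 0 genes in all (4074 at an unadjusted p under 0.05) and the K1 difference 1912. In the genotype comparisons the block is the replicate number, which stands for different mice. Deviations of equal numbers correlated at 0.05 in input, -0.14 in J2 and -0.16 in K1. With 2 mice per genotype, these values cannot settle whether equal numbers pair the mice. That block called 10, 9 and 10 effectors, with Herc6 added in J2 (edgeR adjusted p = 0.000829), and the count of all genes moved by under 1.5 times.

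Values that turned sign, all log2, were mostly near 0. Without TMM these were, for J2 against input, Rsad2 (-0.043), Cmpk2 (-0.14) and Herc6 (-0.31) in control and Mx1 (-0.26), Cmpk2 (-0.35) and Xaf1 (-0.23) in DKO. For K1 they were Rsad2 (-0.16), Isg15 (-0.22) and Cmpk2 (-0.10) in control and Isg15 (-0.064) and Cmpk2 (-0.11) in DKO. The differences of Cmpk2 turned to -0.21 (J2) and -0.0097 (K1). With DESeq2 these were Mx1 (-0.042) and Xaf1 (-0.059) for J2 in DKO, Rsad2 (-0.052) and Isg15 (-0.11) for K1 in control, the J2 differences of Cmpk2 (-0.015) and Rtp4 (-0.0013) and the K1 difference of Herc6 (0.057). Without the filter these were Mx1 (-0.16) and Xaf1 (-0.18) for J2 in DKO and the J2 differences of Mx1 (-0.027), Rsad2 (-0.040), Cmpk2 (-0.24) and Rtp4 (-0.22). With all libraries in 1 fit it was Bst2 for K1 in control (0.034). With thinned counts it was Cmpk2 for K1 in control (-0.056) and the K1 difference of Mx1 (-0.54). With the replicate block it was Cmpk2, for J2 in DKO (-0.34) and for the differences of J2 (-0.58) and K1 (-0.025).

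Leaving out each animal in turn gave 10 effectors called in input and K1 and 2 to 10 in J2. It gave 0 to 4 for J2 against input in control and in DKO, 0 to 3 for K1 in control and in DKO, and 0 to 5 (J2) and 0 to 1 (K1) for the differences. All genes called ranged from 3615 to 6226 in input, 177 to 8635 in J2 and 1149 to 5819 in K1. They ranged from 0 to 10139 (J2, control), 337 to 7791 (J2, DKO), 281 to 9189 (K1, control) and 3005 to 5970 (K1, DKO) against input, and from 0 to 6990 (J2) and 0 to 3802 (K1) for the differences.

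Values that turned sign when an animal was left out had these ranges. For J2 against input they were Bst2 -0.54 to 0.38 and Herc6 -0.049 to 0.10 in control, and Cmpk2 -1.39 to 0.54, Isg15 -0.65 to 0.15, Mx1 -0.10 to 0.18, Mx2 -0.48 to 1.12 and Xaf1 -0.14 to 0.15 in DKO. For K1 they were Bst2 -0.34 to 0.41, Cmpk2 -0.034 to 0.26, Isg15 -0.10 to 0.19 and Rsad2 -0.063 to 0.14 in control, and Cmpk2 -0.30 to 0.37, Isg15 -0.23 to 0.48 and Mx2 -0.73 to 0.45 in DKO. For the differences they were Cmpk2 -1.50 to 0.29 and Rtp4 -0.48 to 0.55 (J2), and Cmpk2 -0.41 to 0.28, Herc6 -0.47 to 0.091 and Isg15 -0.23 to 0.46 (K1).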
